A study of Homo sapiens with 32 samples.

Results

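The 10 genes examined here encode receptors and core components of macroautophagy: SQSTM1, NBR1, MAP1LC3B, GABARAPL1, GABARAPL2, ULK1, BECN1, WIPI1, ATG5 and ATG7. They were chosen by name, with no threshold on a measured value, although earlier results of these data were known, and are 10 of the 22610 gene entries in a table of RNA-Seq expression values. Their mRNAs were measured in SK-N-BE(2), an established human neuroblastoma cell line with amplified MYCN. Cultures received 20 µM cannabidiol (CBD), a plant cannabinoid, or vehicle, which was 0.1% ethanol, and were harvested after 3, 6, 12 and 24 h. Each of the 8 combinations of treatment and time had 4 samples, 32 in all. Per the study's methods each group was treated in quadruplicate. The sources used here do not say whether these treatments came from separate passages or days, so the p-values below measure the spread between these samples. A single cell line and a single CBD concentration were sampled, and RNA abundance says nothing about protein or about the rate of autophagy.

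Macroautophagy encloses cytoplasm in a double membrane, the autophagosome, and delivers it to lysosomes. The kinase ULK1 starts the process. BECN1 is a regulatory subunit of the class III phosphatidylinositol 3-kinase complex, and WIPI1 binds the lipid that this complex makes on the growing membrane. ATG7 is the E1-like enzyme, and ATG5 part of the E3-like complex, that attach ATG8 proteins to the membrane. MAP1LC3B, GABARAPL1 and GABARAPL2 are ATG8 proteins. SQSTM1 (p62) and NBR1 are receptors that bind both ubiquitylated cargo and ATG8 proteins, and both are themselves degraded with the cargo. SQSTM1 also sequesters KEAP1, an inhibitor of the transcription factor NRF2 (gene NFE2L2), and NRF2 and the TFEB family are known activators of SQSTM1 transcription.

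Levels are given as FPKM, fragment counts scaled by transcript length and by the reads mapped in each sample, a scale per length on which different genes can be set side by side. Differences are CBD minus vehicle at the same time on the log2(FPKM + 1) scale, with the standard error (SE) and the adjusted p of a linear model fitted with limma to the 12621 genes with a mean of at least 1 FPKM. A gene was called when its adjusted p was under 0.01. Adding 1 before taking the logarithm shrinks the differences of low genes, so percent changes of mean FPKM are given as well. Relative depth, estimated from single-read steps of low genes, ranged over the 32 samples by a factor of 1.53 from the shallowest to the deepest, and the CBD groups were the shallower at each time (group means of 0.911 to 1.00 against 0.999 to 1.06). The 8 noradrenergic neuroblastoma markers reported here were above 0 in every sample, with medians of 1587 FPKM for MYCN and 501.1 FPKM for HAND2. Their summed level, to which MYCN gives the largest share, overlapped between the treatments at 3 h (3408 to 3702 FPKM with CBD, 3213 to 3434 with vehicle) and was higher in all CBD samples at 6 h (3709 to 3838 against 3337 to 3508), 12 h (3948 to 4035 against 3417 to 3551) and 24 h (3728 to 3908 against 3462 to 3530). CHGA, a member of that list, had the opposite direction at 24 h (log2 difference -0.93), and the part of these markers in the results was not tested. Of 5 fibroblast markers LUM (median 55.6 FPKM) and DCN (7.32 FPKM) were present while COL1A2 was at 0.00724 FPKM. The sum over the 5 was 59.2 to 71.5 FPKM with CBD and 54.0 to 77.4 FPKM with vehicle over all times. At 6 h it was lower in all CBD samples (62.0 to 65.9 FPKM against 68.0 to 70.9), and at 3, 12 and 24 h the treatments overlapped. The 4 leukocyte markers summed to at most 0.559 FPKM and the 3 keratinocyte markers in the table to at most 0.0734 FPKM. These are bulk samples, in which fewer cells of a type and less RNA per cell cannot be told apart.

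The members differed widely in level. GABARAPL2 was the most abundant (mean over 32 samples 92.4 FPKM, SD 4.18), followed by SQSTM1 (39.0), NBR1 (33.4), MAP1LC3B (29.4), BECN1 (23.3), ULK1 (12.1), ATG5 (11.1), GABARAPL1 (4.36), ATG7 (1.73) and WIPI1 (0.551). Neighbours in this order did not overlap in range over the 32 samples, with 3 exceptions. SQSTM1 was above NBR1 in 26 of 32 samples, NBR1 above MAP1LC3B in 31 and ULK1 above ATG5 in 24. WIPI1 was under the limit of 1 FPKM on average, so 9 of the 10 members entered the fit.

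Windows of RefSeq promoters, from 250 bases before to 50 bases after an annotated start, were found for all 10 members (14 windows, build GRCh38.p14). The 250 bases before the start are shown for SQSTM1, the member with the most calls, for GABARAPL1, the ATG8 gene called at 24 h, and for MAP1LC3B, an ATG8 gene called at no time. Each matched its GRCh37 chromosome once, on the plus strand, at chr5:179247655-179247904, chr12:10365226-10365475 and chr16:87425692-87425941. All 3 end at the start of the gene's MANE Select transcript, a chosen reference transcript, and lie inside the gene spans given below. SQSTM1 also had windows at other annotated starts, which are not shown. Capitals mark GGGCGG (the GC box) or its reverse complement in all 3 windows, TGACGTCA (the cyclic AMP response element) in that of GABARAPL1 and TGACNNNGC (the core of the antioxidant response element) in that of MAP1LC3B.
SQSTM1: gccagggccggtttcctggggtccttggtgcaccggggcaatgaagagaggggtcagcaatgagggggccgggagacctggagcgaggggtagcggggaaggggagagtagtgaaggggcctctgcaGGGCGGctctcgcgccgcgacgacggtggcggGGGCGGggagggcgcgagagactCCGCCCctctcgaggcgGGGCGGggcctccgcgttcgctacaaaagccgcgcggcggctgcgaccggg
GABARAPL1: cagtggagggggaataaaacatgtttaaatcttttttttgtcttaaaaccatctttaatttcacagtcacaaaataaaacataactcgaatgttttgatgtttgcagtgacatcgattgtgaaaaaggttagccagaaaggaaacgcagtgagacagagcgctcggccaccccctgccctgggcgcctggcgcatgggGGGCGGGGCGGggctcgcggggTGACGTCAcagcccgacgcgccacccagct
MAP1LC3B: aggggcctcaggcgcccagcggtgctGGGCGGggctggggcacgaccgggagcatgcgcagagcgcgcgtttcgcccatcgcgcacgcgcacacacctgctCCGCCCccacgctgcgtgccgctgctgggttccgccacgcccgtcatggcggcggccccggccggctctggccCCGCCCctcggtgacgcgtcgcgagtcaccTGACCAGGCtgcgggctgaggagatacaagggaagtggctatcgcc

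The letters were searched on both strands over the full windows. The GC box was in 12 of the 14 member windows, which belong to 9 of the 10 genes, and in 45% of 35116 windows of all genes. TGACGTCA was in 1 member window, 30 to 23 bases before the start of GABARAPL1, and in 1.85% of all windows. TGACNNNGC was in 1 member window, 46 to 38 bases before the start of MAP1LC3B, and in 13.3% of all windows. None of the 14 windows held TGATGNAA, a C/EBP-ATF response element (3.62% of all windows), CACGTG, an E-box (7.26%), or TCACGTGA, the core of the CLEAR element that TFEB binds, which contains that E-box (0.98%). Such a match describes the letters and is no evidence of binding, and its absence covers these windows only.

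**Figure D1:**
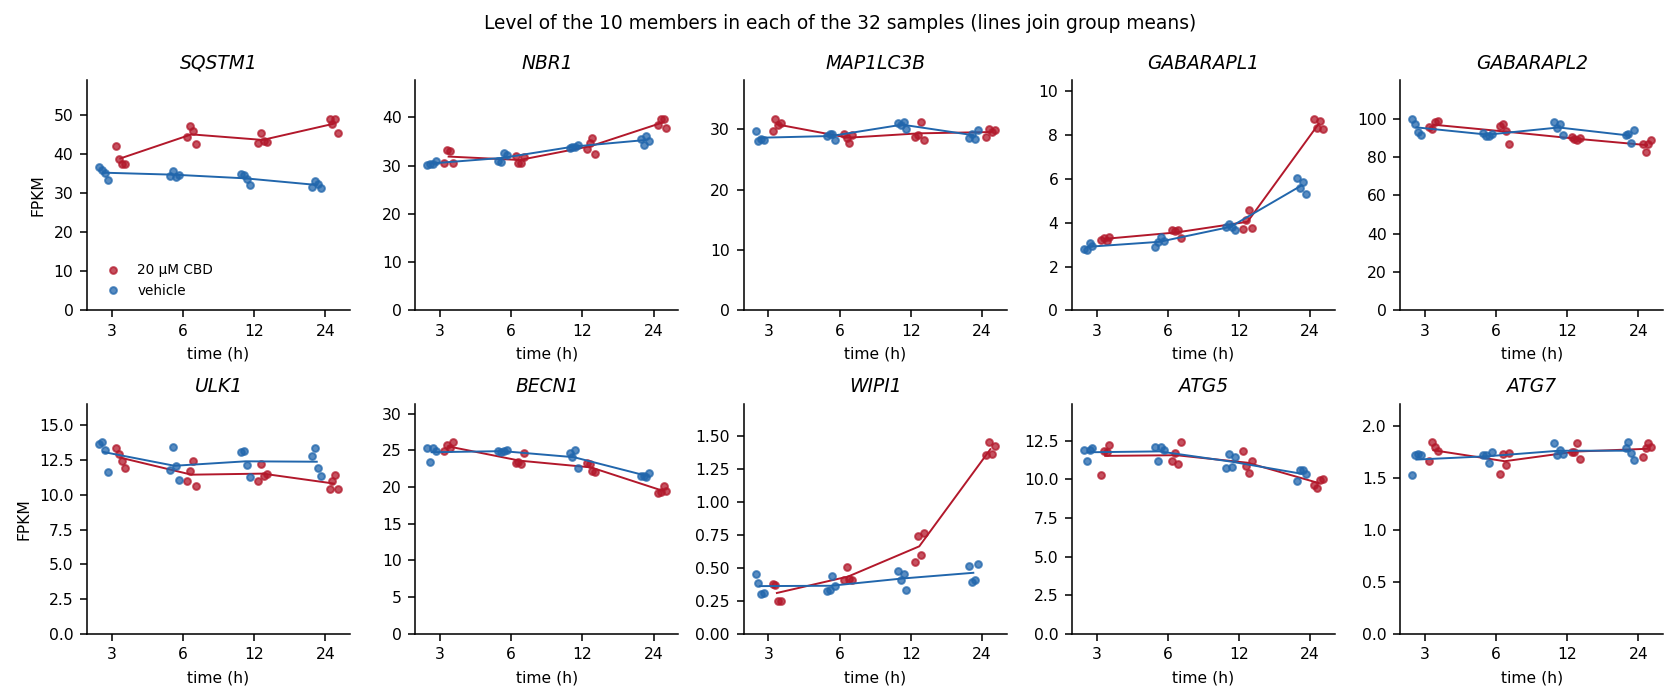
FPKM (vertical axes, each from 0) of the 10 members against time (3, 6, 12 and 24 h) in the CBD samples (red) and vehicle samples (blue). Each point is 1 of 32 samples and lines join the means of 4 samples. SQSTM1 separates from 3 h on, GABARAPL1 climbs in both treatments and further with CBD at 24 h, WIPI1 reaches 1.35 to 1.45 FPKM with CBD at 24 h, and the other panels stay close together.

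SQSTM1, the p62 receptor, was higher with CBD from 6 h on. The gene lies at chr5:179233398-179265078 (GRCh37, plus strand). At 3 h the 4 CBD samples had 42.1, 38.7, 37.4 and 37.6 FPKM and the vehicle samples 36.7, 35.9, 35.1 and 33.6. All CBD samples were above all vehicle samples, but the difference was not called (0.14, SE 0.04, adjusted p = 0.021). At 6 h the CBD samples had 44.5, 47.4, 46.0 and 42.7 FPKM against 34.4, 35.9, 34.2 and 34.8 with vehicle. The groups were separate, and the mean was 29.7% higher with CBD (log2 difference 0.37, SE 0.04, adjusted p = 3.2e-08). At 12 h the values were 42.9, 45.5, 43.3 and 43.2 FPKM with CBD and 34.9, 34.6, 33.8 and 32.2 with vehicle. The rise was of the same size as at 6 h, 29.1% (log2 difference 0.36, SE 0.04, adjusted p = 2.0e-08). At 24 h CBD samples held 49.1, 47.8, 49.2 and 45.5 FPKM and vehicle samples 31.5, 33.3, 32.4 and 31.4. This was the widest separation, a mean of 47.9 FPKM ± 1.69 (SD, n = 4) against 32.2 FPKM ± 0.884, 48.8% higher (log2 difference 0.56, SE 0.04, adjusted p = 1.2e-12). Ordered from the largest rise, SQSTM1 was at place 272 of the 12621 genes at 24 h.

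Between 3 and 24 h the vehicle mean fell and the CBD mean rose, though both fell from 6 to 12 h. With vehicle, SQSTM1 was lower at 24 h than at 3 h (35.3 FPKM ± 1.34 and 32.2 FPKM ± 0.884), a log2 difference of -0.13 (SE 0.04, adjusted p = 0.0026) that was not called under quantile normalization (-0.05, adjusted p = 0.21) nor without replicates 1 of 3 h (adjusted p = 0.014), 1 of 24 h (0.010) or 4 of 24 h (0.011) of the vehicle samples. With CBD the mean was 39.0, 45.1, 43.7 and 47.9 FPKM at 3, 6, 12 and 24 h, and change over time within the CBD samples was not tested. The CBD difference was larger at 24 h than at 3 h by 0.42 (SE 0.05, adjusted p = 3.4e-07 for the change of the difference). Between 12 and 24 h it grew by 0.20 (SE 0.05, adjusted p = 0.0083), a call that ended in 16 of the 32 fits with a sample left out (adjusted p from 0.0030 to 0.021).

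Part of the SQSTM1 transcripts overlaps a gene on the opposite strand, MRNIP (listed as C5orf45). Of all 50-base words in annotated SQSTM1 transcripts, 19.2% also occur in MRNIP transcripts on either strand. The libraries are described as stranded, but whether the quantification used strand is not given in the sources used here. C5orf45 was at 7.76, 9.50, 10.7 and 13.9 FPKM with CBD and 7.19, 8.74, 8.45 and 10.4 FPKM with vehicle at 3, 6, 12 and 24 h (means of 4). It was called at 12 h (log2 difference 0.30, adjusted p = 1.2e-04) and 24 h (0.39, adjusted p = 1.4e-06), not at 6 h (0.11, adjusted p = 0.17), and it rose in vehicle from 3 to 24 h by 0.47 (adjusted p = 2.7e-08), where SQSTM1 had -0.13. The part of its reads in the SQSTM1 values was not tested.

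NBR1, the other cargo receptor among the members (chr17:41322498-41363708, plus strand), was higher with CBD at 24 h. The CBD samples had 38.5, 39.6, 39.8 and 37.7 FPKM and the vehicle samples 35.6, 34.3, 36.2 and 35.2. All 4 CBD samples were above all vehicle samples, by 10.2% in the mean (log2 difference 0.14, SE 0.03, adjusted p = 2.1e-04). At 3, 6 and 12 h the groups overlapped and the differences were 0.06, -0.02 and 0.00 (SE 0.03, adjusted p of 0.18 and above). The 24 h difference was not called different from that at 3 h (0.07, SE 0.04, adjusted p = 0.15) nor from that at 12 h (0.13, SE 0.04, adjusted p = 0.022), the latter passing the threshold without CBD 12 h replicate 3 (0.16, adjusted p = 0.0082). In vehicle alone NBR1 rose from 30.5 to 35.3 FPKM between 3 and 24 h (log2 difference 0.21, adjusted p = 4.0e-07).

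Among the ATG8 genes, GABARAPL1 was higher with CBD at 24 h and the 2 others were called at no time. GABARAPL1 lies at chr12:10365057-10375727 (plus strand), and is the least abundant of the 3. At 24 h the CBD samples had 8.75, 8.34, 8.66 and 8.29 FPKM and the vehicle samples 6.03, 5.58, 5.86 and 5.33. The groups were far apart relative to their spread, with 8.51 FPKM ± 0.228 (SD, n = 4) against 5.70 FPKM ± 0.310, 49.3% higher (log2 difference 0.51, SE 0.04, adjusted p = 2.8e-10). At 12 h the values were 3.69, 4.12, 4.60 and 3.76 FPKM with CBD and 3.82, 3.96, 3.81 and 3.65 with vehicle. These groups overlapped (log2 difference 0.06, SE 0.04, adjusted p = 0.29). At 3 h all CBD samples (3.18 to 3.37 FPKM) were above all vehicle samples (2.77 to 3.09 FPKM), and the difference was not called (0.13, SE 0.04, adjusted p = 0.070). At 6 h CBD replicate 4 (3.30 FPKM) lay within the vehicle range of 2.90 to 3.34 FPKM and the other 3 above it (0.14, SE 0.04, adjusted p = 0.022). This difference passed the threshold without that replicate (0.17, adjusted p = 0.0089) and without CBD 12 h replicate 3 (0.14, adjusted p = 0.0073).

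GABARAPL1 also had the steepest course in vehicle of the 9 members tested. Its vehicle mean was 2.90, 3.13, 3.81 and 5.70 FPKM at 3, 6, 12 and 24 h, and the change from 3 to 24 h was 0.78 on the log2 scale (SE 0.04, adjusted p = 3.1e-14). The CBD difference grew by 0.38 between 3 and 24 h (SE 0.06, adjusted p = 2.3e-05) and by 0.44 between 12 and 24 h (SE 0.06, adjusted p = 1.4e-05). GABARAPL1-AS1, an antisense RNA, shares 5.05% of the 50-base words of GABARAPL1, and GABARAPL3, a paralog, shares 0.740%. GABARAPL3 was between 0.00565 and 0.114 FPKM in all samples.

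MAP1LC3B (LC3B, chr16:87417559-87438385, plus strand) kept to a range of 27.6 to 31.7 FPKM over the 32 samples. At 3 h the CBD samples had 29.7, 31.7, 30.6 and 31.0 FPKM and the vehicle samples 29.7, 28.0, 28.4 and 28.1. The highest vehicle sample was just under the lowest CBD sample, and the difference was not called (0.10, SE 0.03, adjusted p = 0.016). It passed the threshold in 3 of the 32 fits that left out a sample: without CBD 3 h replicate 1 (adjusted p = 0.0064), vehicle 3 h replicate 1 (0.0073) or CBD 12 h replicate 3 (0.0052). At 6, 12 and 24 h the groups overlapped, with differences of -0.01, -0.07 and 0.02 (SE 0.03, adjusted p of 0.77, 0.053 and 0.45). Without CBD 12 h replicate 3, the highest of its group at 31.2 FPKM, the 12 h difference was -0.10 (adjusted p = 0.0035). MAP1LC3B2, a near-identical copy, shares 7.54% of the 50-base words of MAP1LC3B and was at 1.10 to 1.42 FPKM in the group means.

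GABARAPL2 (chr16:75600273-75611779, plus strand), the most abundant member, differed in the mean by 1.46% and 1.78% at 3 and 6 h and by -6.13% and -5.44% at 12 and 24 h, CBD against vehicle. At 12 h the CBD samples (88.6 to 90.3 FPKM) were all below the vehicle samples (91.3 to 98.0 FPKM), a difference that was not called (-0.09, SE 0.03, adjusted p = 0.028). At 24 h the groups overlapped, 82.5 to 88.7 FPKM with CBD and 87.3 to 93.8 FPKM with vehicle (-0.08, SE 0.03, adjusted p = 0.032), and the difference was called under median-ratio scaling (-0.11, adjusted p = 0.0076). GABARAP, the paralog with the highest level, had group means of 184.6 to 225.7 FPKM, MAP1LC3A of 11.1 to 15.6 FPKM, and neither was called at any time. MAP1LC3C was under 0.327 FPKM in every sample.

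ULK1, the initiating kinase (chr12:132379167-132407695, plus strand), had lower means with CBD at all 4 times without being called. At 24 h the CBD samples had 10.4, 11.0, 11.4 and 10.4 FPKM and the vehicle samples 12.8, 13.4, 12.0 and 11.3. A single vehicle sample lay within the CBD range, and the mean with CBD was 12.7% lower (log2 difference -0.18, SE 0.06, adjusted p = 0.014). The difference passed the threshold under median-ratio scaling (-0.20, adjusted p = 0.0059), without vehicle 24 h replicate 4 (-0.22, adjusted p = 0.0061) and without vehicle 3 h replicate 4 (-0.18, adjusted p = 0.0090). At 3, 6 and 12 h it was -0.04, -0.07 and -0.10 (SE 0.06, adjusted p of 0.74, 0.44 and 0.24).

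BECN1 (chr17:40962152-40985367, minus strand) fell with CBD at 24 h, the single member called lower. The CBD samples had 19.1, 19.3, 20.2 and 19.5 FPKM and the vehicle samples 21.5, 21.6, 21.3 and 21.9. All CBD samples were below all vehicle samples, a change of -9.58% in the mean (log2 difference -0.14, SE 0.03, adjusted p = 9.5e-05). At 6 h the CBD samples (23.1 to 24.6 FPKM) were also all below vehicle (24.7 to 25.0 FPKM), with no call (-0.07, SE 0.03, adjusted p = 0.051). At 12 h the groups overlapped (-0.08, SE 0.03, adjusted p = 0.022), and the difference was called without vehicle 12 h replicate 4 (-0.11, adjusted p = 0.0018). At 3 h the mean was 3.17% higher with CBD (0.04, adjusted p = 0.34). The change of the difference from 3 to 24 h was -0.18 (SE 0.04, adjusted p = 3.9e-04). In vehicle BECN1 was lower at 24 h than at 3 h by 0.19 on the log2 scale (adjusted p = 7.9e-07). CNTD1, which overlaps BECN1 on the other strand and shares 10.4% of its 50-base words, was between 0.106 and 0.328 FPKM in all samples.

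WIPI1 (chr17:66417089-66453654, minus strand), the binder of phosphatidylinositol 3-phosphate, was the least abundant member and had the largest relative change. At 24 h the CBD samples had 1.35, 1.45, 1.36 and 1.42 FPKM and the vehicle samples 0.515, 0.396, 0.405 and 0.531. The groups were separate, with means of 1.4 FPKM ± 0.0475 (SD, n = 4) and 0.462 FPKM ± 0.0713, a ratio of 3.03. At 12 h the CBD samples had 0.541, 0.742, 0.599 and 0.766 FPKM and the vehicle samples 0.476, 0.408, 0.456 and 0.335. These too were separate, with a ratio of means of 1.58. At 3 and 6 h the groups overlapped, with ratios of 0.856 and 1.19. With no filter on level the log2 difference was 0.23 at 12 h (SE 0.05, adjusted p = 8.5e-04) and 0.71 at 24 h (SE 0.05, adjusted p = 3.1e-12), and its change from 3 to 24 h was 0.77 (adjusted p = 1.6e-09). Of the 50-base words of WIPI1, 20.6% occur in ARSG, a gene for a lysosomal sulfatase on the other strand. ARSG was at 2.19, 2.38, 2.68 and 3.11 FPKM with CBD and 2.07, 2.08, 2.11 and 2.25 FPKM with vehicle, and was called higher at 12 h (0.24, adjusted p = 6.3e-05) and 24 h (0.34, adjusted p = 1.6e-07). The part of its reads in the WIPI1 values was not tested.

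ATG5 and ATG7, which act in ATG8 conjugation, were called at no time against vehicle. ATG5 (chr6:106493298-106773666, minus strand) had means of 11.5, 11.6, 11.1 and 9.75 FPKM with CBD and 11.7, 11.8, 11.1 and 10.4 FPKM with vehicle, and the groups overlapped at each time. The largest difference was at 24 h (-0.08, SE 0.04, adjusted p = 0.13). ATG7 (chr3:11313995-11599139, plus strand) stayed between 1.53 and 1.85 FPKM in all 32 samples, with differences from -0.03 to 0.05 (SE 0.03, adjusted p of 0.38 and above). VGLL4, which shares 16.4% of the 50-base words of ATG7 on the other strand, was at 19.6 to 21.8 FPKM in the group means and was not called either. It was far above ATG7 in level, and the part of its reads in the ATG7 values was not tested.

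**Figure D2:**
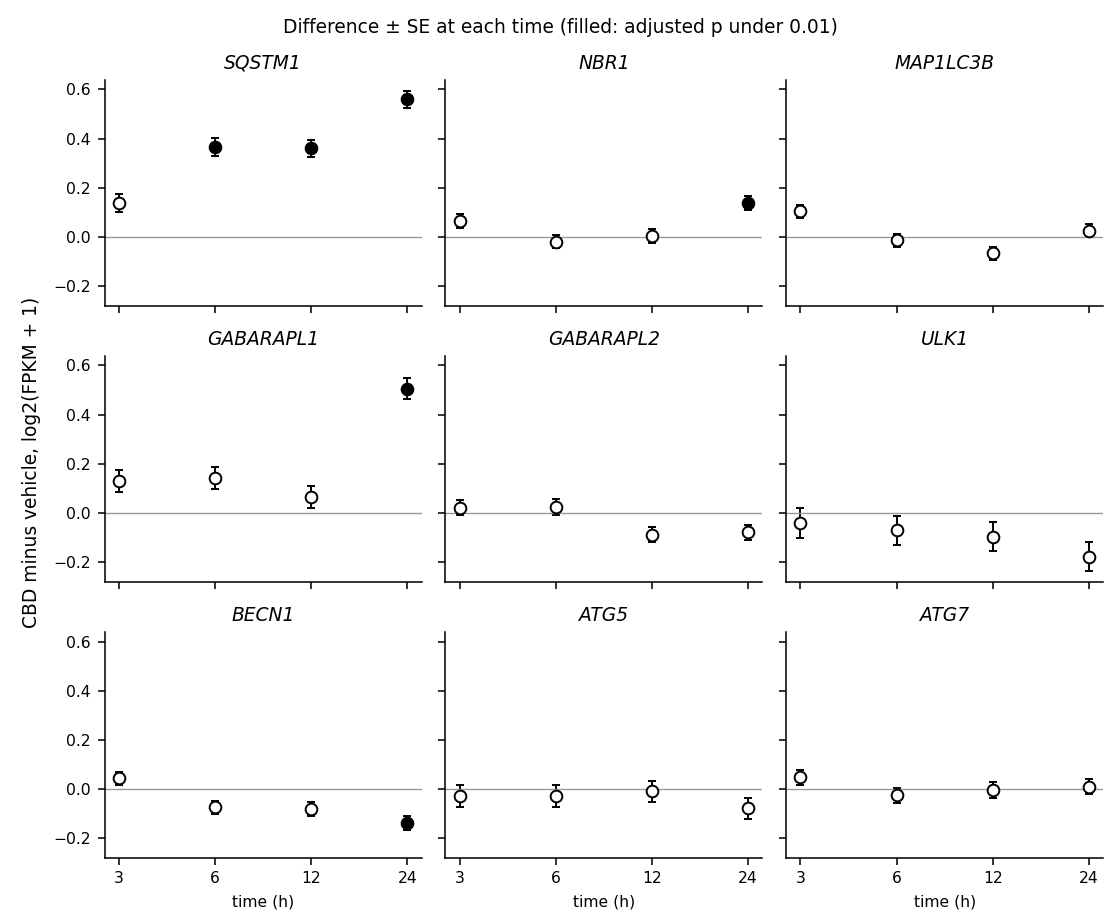
Difference between CBD and vehicle on the log2(FPKM + 1) scale (vertical axis) against time (3, 6, 12 and 24 h) for the 9 members tested. Points are estimates with bars of 1 SE, filled where the adjusted p was under 0.01: SQSTM1 at 6, 12 and 24 h (0.37, 0.36 and 0.56), GABARAPL1, NBR1 and BECN1 at 24 h (0.51, 0.14 and -0.14).

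Of the 9 members tested, 0, 1, 1 and 4 were called at 3, 6, 12 and 24 h. Over all 12621 genes tested, the corresponding shares called were 2.46%, 10.2%, 20.1% and 42.1%, so that the 44.4% of members called at 24 h was near the background. The 24 h calls were 3 higher and 1 lower, where 20.8% of all genes were higher and 21.3% lower. Median-ratio scaling added GABARAPL2 and ULK1, giving 3 higher and 3 lower, and moved the share of higher genes among all calls from 49.4% to 40.7%. At 3 h, limma gave 4 members an unadjusted p under 0.05, where 23.1% of all genes had that; no other tool was run. CBD and vehicle samples did not overlap for 3, 2, 2 and 4 of the 9 members at 3, 6, 12 and 24 h, and for 9.88%, 19.6%, 30.3% and 51.0% of all genes. The median member difference was 0.05, -0.02, -0.01 and 0.01, and the median of all genes 0.01, 0.00, 0.00 and 0.00. The CBD difference changed from 3 to 24 h for 3 members (SQSTM1, GABARAPL1 and BECN1) and for 27.2% of all genes. From 12 to 24 h, a comparison added after the values were seen, it changed for 2 members (SQSTM1 and GABARAPL1) and for 8.15% of all genes.

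**Figure D3:**
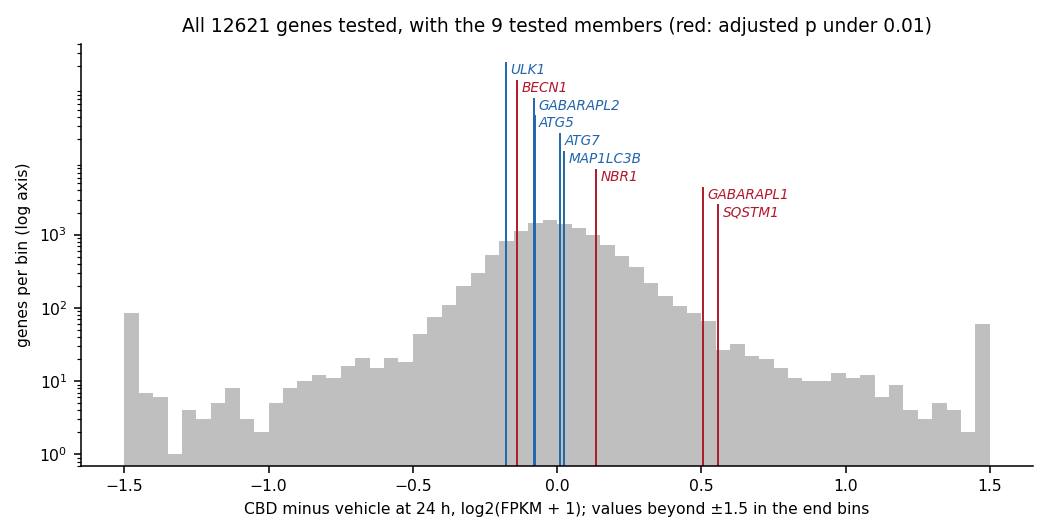
Number of genes (vertical log axis) by difference between CBD and vehicle at 24 h (horizontal axis, log2(FPKM + 1), bins of 0.05) for the 12621 genes tested, with vertical lines at the 9 tested members, red where called. SQSTM1 (0.56) and GABARAPL1 (0.51) lie in the upper tail, at places 272 and 336 from the largest rise, and the other 7 lie within the central mass.

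In vehicle samples alone, 5 of the 9 members were called between 3 and 24 h, where 57.8% of all genes were. GABARAPL1 (0.78) and NBR1 (0.21) were higher at 24 h, and BECN1 (-0.19), ATG5 (-0.17, adjusted p = 0.0015) and SQSTM1 (-0.13) were lower. MAP1LC3B, GABARAPL2, ULK1 and ATG7 were not called (0.02, -0.07, -0.07 and 0.05). Quantile normalization gave 6 calls in place of 5, losing SQSTM1 and adding MAP1LC3B (0.08, adjusted p = 0.0049) and ATG7, whose difference then had the opposite sign (-0.10, adjusted p = 0.0078). This comparison shares the 24 h vehicle samples, with opposite sign, with that of CBD and vehicle at 24 h, so the directions of the 2 are not independent.

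The course of SQSTM1 over the 32 samples was set beside that of the other genes as a description. The Pearson correlation of log2(FPKM + 1) was 0.97 with SLC1A5, a glutamine transporter, 0.95 with LPAR3, a lysophosphatidic acid receptor, 0.95 with the antisense RNA NUP50-AS1, 0.95 with YARS, the cytosolic tyrosyl-tRNA synthetase, and 0.95 with SLC7A11, the cystine/glutamate antiporter. These 5 were the highest of the genes tested. At 24 h their differences were 0.79, 0.56, 0.69, 0.46 and 1.41, beside 0.56 for SQSTM1. SLC7A11 had the lowest level of the 5, a mean of 1.64 FPKM over the 32 samples. This is near the limit of 1 FPKM, and the CBD samples count in that mean. The other tested members could only lie below these 5, which were picked as the highest. Their correlations with SQSTM1 were 0.37 for GABARAPL1, 0.26 for NBR1, -0.08 for MAP1LC3B, -0.03 for ATG7, -0.31 for ATG5, -0.37 for GABARAPL2, -0.42 for BECN1 and -0.45 for ULK1. No background over all genes is given for these values. All points share the 8 groups, and each sample gives both genes from 1 library of 1 depth.

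A further 90 autophagy genes in 9 lists were measured, of which 85 were tested. At 3, 6, 12 and 24 h, 2, 9, 11 and 41 of them were called, or 2.35%, 10.6%, 12.9% and 48.2%, beside 2.46%, 10.2%, 20.1% and 42.1% of all genes. At 24 h 18 were higher and 23 lower, with a median difference of -0.02. Of the 4 other ULK complex genes 0 were called at 24 h, with ULK1 itself at -0.18. Of 9 genes for ATG8 conjugation and its ATG4 proteases 2 were called (1 higher, 1 lower), of 10 class III PI3-kinase and early membrane genes 5 (3 higher, 2 lower), and of 7 genes for effectors of the lipid, ATG2 and ATG9 4 (1 higher, 3 lower). Of 13 genes for tethering and fusion 9 were called, 2 higher and 7 lower.

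The largest differences among these genes were in receptors other than SQSTM1 and NBR1 and in regulators of mTORC1, the kinase complex that restrains ULK1. BNIP3, a mitophagy receptor, was lower with CBD from 6 h on, with differences of -0.41, -0.60 and -1.24 at 6, 12 and 24 h (SE 0.06, adjusted p of 1.9e-05, 2.4e-08 and 3.7e-15). Its level with CBD ranged only from 36.5 to 42.8 FPKM in the group means, while with vehicle it climbed from 38.4 FPKM at 3 h to 102.9 FPKM at 24 h. BNIP3L, its homolog, was lower at 12 h (-0.18) and 24 h (-0.27, adjusted p = 5.5e-05), the 12 h call ending in 6 of the 32 fits with a sample left out (adjusted p up to 0.032) and under 4 other settings (up to 0.025). OPTN, a receptor for ubiquitylated cargo like SQSTM1, was higher at 24 h (0.31, SE 0.05, adjusted p = 5.9e-06), with 4.80 FPKM ± 0.259 against 3.66 FPKM ± 0.220. KEAP1, which SQSTM1 binds, was higher at 6 h (0.13, adjusted p = 0.0089, a call lost in 19 of the 32 fits with a sample left out, adjusted p up to 0.037, and under 3 other settings, up to 0.044) and lower at 24 h (-0.19, SE 0.03, adjusted p = 4.8e-05). The list of other receptors includes genes that are not receptors themselves, such as KEAP1. Of its 22 genes tested, 10 (45.5%) were called at 24 h, 6 higher and 4 lower, with KEAP1 among the lower. Over all genes 42.1% were called, 20.8% higher and 21.3% lower.

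SESN2, a stress-induced inhibitor of mTORC1, had the largest rise at each time among the list genes called. Its mean was 2.23, 2.48, 2.42 and 3.21 FPKM with CBD and 1.28, 1.25, 1.32 and 1.4 FPKM with vehicle at 3, 6, 12 and 24 h. The differences were 0.50, 0.62, 0.55 and 0.78 (SE 0.10), all called (adjusted p of 0.0037, 1.1e-04, 1.9e-04 and 5.9e-07), the first being lost in 5 of the 32 fits with a sample left out (adjusted p up to 0.016) and under 2 other settings (0.011 and 0.014). DEPTOR, an mTOR-binding inhibitor, was higher at 24 h (0.46, SE 0.03, adjusted p = 8.4e-12). Of the 12 genes of this list 6 (50.0%, beside 42.1% of all genes) were called at 24 h, SESN2 and DEPTOR higher and 4 lower: SESN1 (-0.23), AKT1S1 (-0.19), RPTOR (-0.18) and TSC1 (-0.11), named after their values were seen. The median of the list was -0.11. SESN3 was lower at 6 h (-0.39, lost with each time alone, adjusted p = 0.011) and 12 h (-0.36), and at 24 h had -0.18 (adjusted p = 0.016). TMEM41B, a scramblase of early autophagosome formation, was lower at 3 h (-0.17, adjusted p = 0.0037) and higher at 6, 12 and 24 h (0.15, 0.16 and 0.19, the last with adjusted p = 6.6e-05), and the call at 3 h ended in 6 and that at 6 h in 5 of the fits with a sample left out, and both with each time alone (adjusted p of 0.011 and 0.11). ATG16L2 was higher at 12 h (0.26) and 24 h (0.24, adjusted p = 0.0021), the 12 h call being lost without CBD 12 h replicate 1 or 2 (adjusted p of 0.014 and 0.011) and with each time alone (0.015). PIK3C3, the lipid kinase of the BECN1 complex, was lower at 12 h (-0.16, adjusted p = 0.0074) and 24 h (-0.28, SE 0.04, adjusted p = 5.3e-06). VPS41, a subunit of the HOPS tethering complex, was lower at 12 h (-0.16) and 24 h (-0.30, SE 0.03, adjusted p = 5.0e-08).

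Of the transcription factors of autophagy genes, 5 were tested and called at 24 h, where 42.1% of all genes were called; with so few genes the count describes no more than these genes, which are named after their values were seen. TFEB (0.25, SE 0.06), MITF (0.20, SE 0.04) and TFE3 (0.13, SE 0.03), members of 1 family, were higher. FOXO3 (-0.09, SE 0.03) and ZKSCAN3, a repressor of autophagy genes (-0.11, SE 0.03), were lower. FOXO3 was also lower at 6 h (-0.13, adjusted p = 6.4e-04) and 12 h (-0.18, adjusted p = 3.5e-06).

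**Figure D4:**
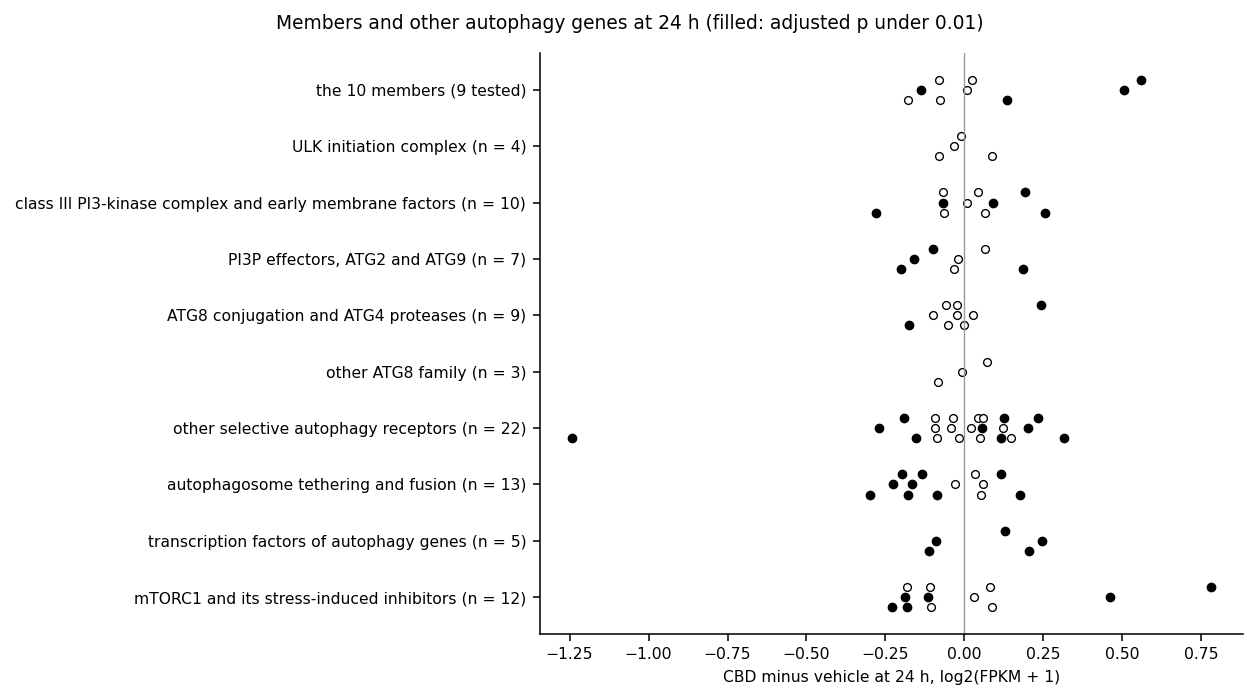
Difference between CBD and vehicle at 24 h (horizontal axis, log2(FPKM + 1)) for the 9 tested members (top row) and the 85 other autophagy genes tested, 1 point per gene, by list. Filled points have an adjusted p under 0.01; the lowest point is BNIP3 (-1.24), the highest SESN2 (0.78), and SQSTM1 and GABARAPL1 are the 2 rightmost members.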

How the data were processed

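SK-N-BE(2) RNA from 32 samples was sequenced by the authors as single reads. Per the labels and methods, reads were trimmed with Trimmomatic version 0.36 and aligned to hg19 with TopHat, with multiple mapping permitted. FPKM values per gene were computed by the authors with Cufflinks and deposited with no further scaling stated. The annotation is not given in the sources used here, and the sources differ on the library kit and the aligner version. FPKM do not record depth, so counting error is unknown. The deposited table of the authors' Cuffdiff comparisons (fold changes and q-values) was not used.

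Here log2(FPKM + 1) of the 12621 of 22610 entries that averaged 1 FPKM or more was fitted in R (4.3.3) with the package limma (3.58.1), using 8 group means and moderated variances with an intensity trend, with Benjamini-Hochberg adjustment within each comparison and a threshold of 0.01. The procedure was tested on simulated data. Alternatives were other added values, filters, scalings and thresholds, a replicate block, each time alone, and each of 32 samples left out. Same-numbered CBD and vehicle samples did not deviate together (r of -0.08 to 0.09 over 16 pairs), so the numbers were not treated as pairs. No 2 columns were identical. A further neuroblastoma marker is not reported here.

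Members and gene lists were chosen with earlier results of these data known. Other genes named are the 3 largest rises and falls among called list genes at each time, all ATG8 paralogs, the 5 genes most correlated with SQSTM1, and those said to be named later. Positions and shared words are from GENCODE version 44 on GRCh37. MRNIP was matched to C5orf45 by its RefSeq synonym.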

Additional observations from a re-analysis of the deposited data

Results flagged for a closer look

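A sample stood apart from the other 3 of its group in 7 of 216 gene and group combinations examined (gap over range above Dixon's critical value for 4 samples), and chance alone flags about 1 in 20 groups. For the members these were SQSTM1 in CBD 12 h replicate 2 (45.5 FPKM against 42.9 to 43.3, ratio 0.834), GABARAPL1 in CBD 6 h replicate 4 (3.30 against 3.61 to 3.66, ratio 0.862), WIPI1 in CBD 6 h replicate 2 (0.504 against 0.406 to 0.415, ratio 0.906) and ATG7 in vehicle 3 h replicate 1 (1.53 against 1.72 to 1.73, ratio 0.955). The others were OPTN in vehicle 12 h replicate 1 (2.22 FPKM, ratio 0.838), VPS41 in vehicle 6 h replicate 2 (8.84 FPKM, ratio 0.841) and GABARAPL3 in vehicle 3 h replicate 2 (0.0291 FPKM, ratio 0.853).

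The difference between CBD and vehicle changed from 3 to 24 h by the limma test of that change (adjusted p under 0.01) for 3 members: SQSTM1 (0.42), GABARAPL1 (0.38) and BECN1 (-0.18). Among the other genes named it changed for DEPTOR (0.47) and TMEM41B (0.36), and downward for BNIP3 (-1.22), PIK3C3 (-0.36), BNIP3L (-0.33), VPS41 (-0.33), KEAP1 (-0.29) and FOXO3 (-0.15). Several of these were named for their difference at 3 or 24 h, so for them the test reuses values that chose them. The difference changed for 19 of the 85 other autophagy genes tested (22.4%) and for 27.2% of all genes.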

How the results depend on the processing

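The SQSTM1 calls at 6, 12 and 24 h and those of GABARAPL1, NBR1 and BECN1 at 24 h held under every alternative that tested them and with each of the 32 samples left out. Part of this could not come out otherwise. Leaving out a sample of another time changes the shared spread but not the difference. An adjusted p under 0.05 is a looser threshold on the same fit and cannot end a call. The number of members called did move at earlier times. At 3 h it was 0, against 1 with a replicate block (SQSTM1, adjusted p = 0.0072), 2 at an adjusted p under 0.05 and 0 to 1 with a sample left out. At 6 h it was 1, against 2 at the looser threshold and 1 to 2 with a sample left out; at 12 h 1, against 2 with no filter (WIPI1 added), 3 at the looser threshold and 1 to 2. For the change from 12 to 24 h it was 2, against 1 under median-ratio scaling, 1 with a mean of at least 5 FPKM (GABARAPL1 not tested) and 1 to 2 with a sample left out; with no filter it was 2, WIPI1 being gained (adjusted p = 1.8e-05) and SQSTM1 lost (0.012). Of the other autophagy genes, 2 were called at 3 h, against 1 with 5 added, 1 with a mean of at least 5 FPKM, 7 at the looser threshold and 0 to 3 with a sample left out. At 6 h 9 were called, against 15 at the looser threshold, 3 with each time alone and 4 to 11; at 12 h 11, against 7 with no filter, 7 with a mean of at least 5 FPKM, 18 at the looser threshold, 6 with each time alone and 7 to 11. The causes were not tested beyond the genes tested or the threshold that these settings change. The 24 h counts stayed within 1.5 times.

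The replicate block also called ULK1 at 24 h (adjusted p = 0.0034), giving 5 members at 24 h, and ended the calls of SESN2 at 3 h (0.011), KEAP1 at 6 h (0.014) and BNIP3L at 12 h (0.010). Of the samples, 9 of 32 correlated best with their own number. Over 3428 single differences set against the main fit, 78 lost and 24 gained a call, no called difference reversed, and 26 uncalled ones changed sign. These counts include fits without a sample outside the comparison, in which the difference cannot move. They also include the main fit read at the looser threshold, where calls can only be gained. Depth is not recorded in FPKM, so the counting error behind the low values of WIPI1 and ATG7 is unknown. Their standard errors pool the spread within the 8 groups and are moderated across genes.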
